A study of Mus musculus with 12 samples.

Results

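The comparison described here sets the striatum of 3 Q92 mice at 3 months against that of 3 wild-type mice of the same age, which is 6 of the 12 arrays of the series. The mice were taken by genotype and age as labelled, and all 45037 probe sets other than the array maker's controls were compared. All mice were of the C57BL/6 strain, and each array held the RNA of 1 mouse on the Affymetrix Mouse Genome 430 2.0 array. The wild-type mice were wt_3m_436 (male, 103 days), wt_3m_438 (female, 103 days) and wt_3m_467 (male, 100 days). The Q92 mice were Q92_3m_439 and Q92_3m_440 (both female, 103 days) and Q92_3m_466 (male, 100 days). Q92 mice are homozygous (HdhQ92/Q92): both copies of their own huntingtin gene, Htt (older symbol Hdh), carry 92 CAG repeats that come from exon 1 of the human gene. The other 6 arrays, from 18-month-old mice of both genotypes, entered the fit and are used below only to set the early difference beside the late one.

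Huntington's disease is caused by a long CAG repeat in the huntingtin gene, which lengthens a run of glutamines in the protein. The GABAergic projection neurons of the striatum, which send their axons to the pallidum and midbrain and are told apart by enkephalin with the D2 dopamine receptor or by substance P and dynorphin with the D1 receptor, are the cells most affected. In knock-in mice the repeat is read from the gene's own promoter, in every cell that uses the gene, and changes in RNA are known to precede signs of disease, so that a comparison of young animals asks which genes differ early.

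At 3 months very few genes passed the test, which with 3 mice per group could not tell small differences from 0. An adjusted p under 0.05 in limma was found for 5 probe sets (0.0111% of those tested), and each stood for a different gene. Probe sets of Speer4cos, Abhd1, Rrs1 and Ppp1cb rose in Q92 mice (0.00888%), by 6.60-, 2.70-, 1.71- and 2.16-fold, though for Ppp1cb the gene's other 3 probe sets were slightly lower. Jakmip1 was the gene that fell (0.00222%), by 1.74 on the log2 scale. No marker gene of striatal neurons passed. In a fit to only the 6 arrays, without the 18-month mice, Speer4cos was the 1 probe set that passed. Of these 5 genes, 4 are annotated to chromosome 5, where Htt lies, and Rrs1 to chromosome 1. For Speer4cos the place rests on a gene name that is uncertain, as described below.

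Promoters of the chromosome 5 genes are shown because 3 of the genes that rose and the gene that fell are annotated to the chromosome of the knock-in. RefSeq windows of 300 bases (250 before the start and 50 after it, assembly GRCm38.p6, plus strand) were held for Ppp1cb, Jakmip1 (2 starts) and Htt. Capitals mark GC boxes, GGGCGG or its reverse complement. The windows are chr5:32458720-32459019 for Ppp1cb, chr5:37050607-37050906 and chr5:37084986-37085285 for Jakmip1 and chr5:34761490-34761789 for Htt.
Ppp1cb: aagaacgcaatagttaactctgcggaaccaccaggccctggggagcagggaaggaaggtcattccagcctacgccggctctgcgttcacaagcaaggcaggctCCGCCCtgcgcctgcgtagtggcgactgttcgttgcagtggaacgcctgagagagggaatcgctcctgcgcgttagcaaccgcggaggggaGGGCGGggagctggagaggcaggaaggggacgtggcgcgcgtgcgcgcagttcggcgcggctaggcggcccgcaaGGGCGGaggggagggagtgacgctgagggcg
Jakmip1, start 1: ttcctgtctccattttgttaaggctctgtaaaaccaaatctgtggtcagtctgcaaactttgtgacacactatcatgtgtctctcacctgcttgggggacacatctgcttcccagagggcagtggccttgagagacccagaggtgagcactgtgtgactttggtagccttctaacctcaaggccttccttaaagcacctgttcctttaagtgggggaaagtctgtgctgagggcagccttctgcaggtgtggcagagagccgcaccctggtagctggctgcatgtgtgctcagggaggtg
Jakmip1, start 2: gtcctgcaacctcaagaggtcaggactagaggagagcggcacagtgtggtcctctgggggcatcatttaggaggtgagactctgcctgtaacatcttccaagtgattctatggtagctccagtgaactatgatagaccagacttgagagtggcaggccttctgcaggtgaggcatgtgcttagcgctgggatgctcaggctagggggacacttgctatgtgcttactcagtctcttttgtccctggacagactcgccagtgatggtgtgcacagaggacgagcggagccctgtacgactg
Htt: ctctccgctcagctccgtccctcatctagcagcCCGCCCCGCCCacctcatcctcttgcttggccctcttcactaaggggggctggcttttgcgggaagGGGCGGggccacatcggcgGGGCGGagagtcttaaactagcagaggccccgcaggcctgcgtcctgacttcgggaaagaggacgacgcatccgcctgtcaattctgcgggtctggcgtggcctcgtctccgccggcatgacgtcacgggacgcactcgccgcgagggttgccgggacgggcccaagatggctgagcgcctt
The Ppp1cb window held 3 GC boxes and 31 CpG dinucleotides at 67.3% GC, and the Htt window held 4 GC boxes, of which a pair overlaps by 1 base, and 29 CpG dinucleotides at 67.3% GC. The Jakmip1 windows held 0 GC boxes, with 1 and 6 CpG dinucleotides at 53.0% and 54.7% GC. Over 32851 promoters of this length the median was 7 CpG dinucleotides and 52.7% GC, and 35.7% held a GC box on either strand. None of the 4 windows held the letters CCAAT (in 37.4% of all promoters, either strand) or TATAAA (13.6%). These matches describe the windows and were not tested against the expression differences.

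The 6 arrays were alike as a whole. Correlations between them ran from 0.987 to 0.995 over all probe sets, medians ran from 4.96 to 5.01, and the 3′ minus 5′ difference of the Gapdh control ran from -0.07 to -0.01. Projection neuron markers were bright in every mouse, with Penk between 11.58 and 11.81, Ppp1r1b between 10.80 and 11.27 and Pde10a between 10.78 and 11.56, as in striatum. Markers of neighbouring tissue were present in differing amounts: the choroid plexus gene Ttr ran from 9.82 to 13.7, the thalamic gene Prkcd from 6.28 to 9.0 and the cortical gene Slc17a7 from 5.22 to 6.57. Xist was high in the 3 females and low in the 3 males, as labelled. Values are RMA signals on the log2 scale, which are not comparable between probe sets, and means are given ± SD with n = 3 mice per group. In RNA of whole tissue, fewer cells of a type and less RNA per cell cannot be told apart.

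The knock-in gene itself was measured by 4 probe sets. The brightest read 7.68 in wt_3m_436, 7.68 in wt_3m_438 and 7.92 in wt_3m_467, and 8.08, 8.09 and 8.03 in Q92_3m_439, Q92_3m_440 and Q92_3m_466. All Q92 mice lay above all wild-type mice, but the log2 difference of 0.30 (95% confidence interval 0.09 to 0.52) had an unadjusted p of 0.00937 and an adjusted p of 1.00 in limma. The other probe sets gave 0.31, 0.13 and -0.06, with overlapping groups. The array was designed for the mouse sequence and none of these values measures the repeat.

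Speer4cos is named after the Speer family, a set of near-identical genes and pseudogenes known from the testis, many of them on chromosome 5. Its probe set read 3.84, 3.53 and 3.22 in wt_3m_436, wt_3m_438 and wt_3m_467 and 6.33, 6.22 and 6.19 in Q92_3m_439, Q92_3m_440 and Q92_3m_466, the order of mice in all that follows. The groups did not overlap and the gap between them was far wider than the spread in either. The log2 difference was 2.72 (SE 0.15, adjusted p = 1.24e-05), from 3.53 ± 0.31 to 6.25 ± 0.07. The difference was 2.98 between the males of 100 days (Q92_3m_466 and wt_3m_467). It was 2.75 between the females of 103 days (Q92_3m_439 and Q92_3m_440 against wt_3m_438). Sex and age in days change together in these comparisons, here and below, and wt_3m_436 is in neither. Because family members share sequence, the probe set's gene name is uncertain, and the other Speer probe sets were read beside it. One that the annotation assigns to Speer4cos, Speer8-ps1, Gm21847 and Gm30613 together read 4.56, 4.48 and 4.72 in wild-type mice and 5.53, 5.17 and 5.16 in Q92 mice. It was also higher in every Q92 mouse, by 0.70, and its adjusted p was 0.880. One assigned to Speer4b with Gm10471, Gm7347 and Gm5862 was at -0.44 (unadjusted p = 0.0322), with overlapping groups. The others, of Speer3, Speer4a, Speer4b, Speer4f1, Speer5-ps1, Speer6-ps1 and Speer8-ps1 alone and one that Speer1 shares, had differences between -0.24 and 0.10, and all of these had an adjusted p of 1.00.

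Abhd1 encodes an alpha/beta hydrolase domain protein. Its single probe set read 5.06, 4.51 and 5.12 in wild-type mice and 6.24, 6.44 and 6.29 in Q92 mice. The lowest Q92 mouse lay well above the highest wild-type mouse, and wt_3m_438 was the low one of its group. The log2 difference was 1.43 (SE 0.15, 95% confidence interval 1.11 to 1.75, adjusted p = 0.00660), with 1.17 between the males of 100 days and 1.83 between the females of 103 days. The call ended without Q92_3m_439 (adjusted p = 0.0546) or Q92_3m_440 (adjusted p = 0.0627).

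Jakmip1 encodes a microtubule-binding protein of neurons that also interacts with Janus kinases and with GABA-B receptors. The probe set that passed read 6.20, 6.14 and 6.74 in wild-type mice and 4.47, 4.63 and 4.76 in Q92 mice. Every Q92 mouse was lower than every wild-type mouse. The log2 difference was -1.74 (SE 0.18, adjusted p = 0.00660), -1.98 between the males and -1.58 between the females of matched days. The gene has 4 probe sets, and they did not give 1 answer. A second read 5.46, 5.78 and 5.96 against 4.41, 5.00 and 4.90, a difference of -0.96 (unadjusted p = 0.000242). The brightest of them read 9.96, 9.96 and 10.18 against 9.53, 9.34 and 9.61, a difference of -0.54 (unadjusted p = 0.00144). In both, all Q92 mice lay below all wild-type mice, though neither passed after adjustment (adjusted p = 1.00). The remaining one differed by -0.01 with overlapping groups. The call ended without Q92_3m_439 (adjusted p = 0.0880) or Q92_3m_440 (adjusted p = 0.0627).

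Rrs1 encodes a regulator of ribosome biogenesis, needed for assembly of the large ribosomal subunit. It read 7.84, 7.89 and 7.89 in wild-type mice and 8.65, 8.68 and 8.59 in Q92 mice. This was the tightest of the passing probe sets in the wild-type group, with SDs of 0.03 and 0.05 around means of 7.87 and 8.64. The log2 difference was 0.77 (SE 0.09, adjusted p = 0.0161), with 0.70 between the males and 0.78 between the females of matched days. A second probe set read 7.38, 7.57 and 7.15 against 7.81, 7.91 and 8.04 and pointed the same way without passing (0.55, unadjusted p = 0.00147, adjusted p = 1.00). The size of the difference stayed between 0.75 and 0.80 when any 1 of the 6 arrays was left out, but the adjusted p then lay between 0.0805 and 0.167, so the call ended without any 1 of them.

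Ppp1cb encodes the beta catalytic subunit of protein phosphatase 1, the phosphatase that DARPP-32 inhibits in striatal neurons. The probe set that passed read 5.30, 5.46 and 4.84 in wild-type mice and 6.29, 6.32 and 6.32 in Q92 mice. The Q92 mice were nearly equal and all above the wild-type mice, among which wt_3m_467 was low. The log2 difference was 1.11 (SE 0.14, adjusted p = 0.0284), with 1.48 between the males and 0.85 between the females of matched days. The other 3 probe sets of the gene did not share this: the brightest read 9.94, 10.14 and 10.16 against 9.66, 10.01 and 9.79, a difference of -0.26 in the opposite direction (unadjusted p = 0.0572), and the others gave -0.15 and -0.09. The rise is thus a measurement of 1 probe set and not of the gene as a whole. The call ended without wt_3m_436 (adjusted p = 0.124) and without any 1 of the Q92 mice (adjusted p between 0.192 and 0.233).

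**Figure D1:**
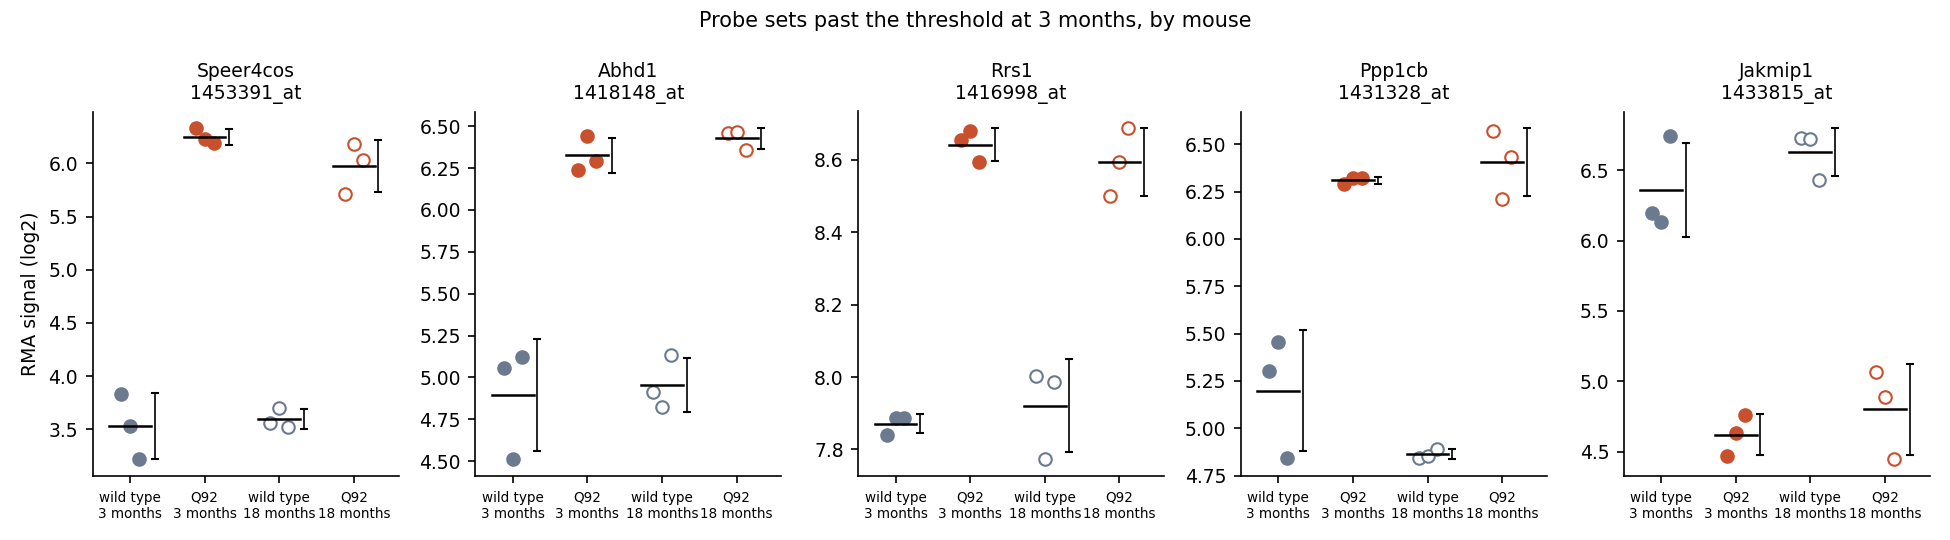
RMA signal on the log2 scale of the 5 probe sets that passed at 3 months, 1 point per mouse, filled at 3 months and open at 18 months, with lines for group means and bars for 1 SD on either side. At 3 months the Q92 mice (orange) and wild-type mice (grey) do not overlap in any panel, and Speer4cos has the widest gap, 2.72.

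**Figure D2:**
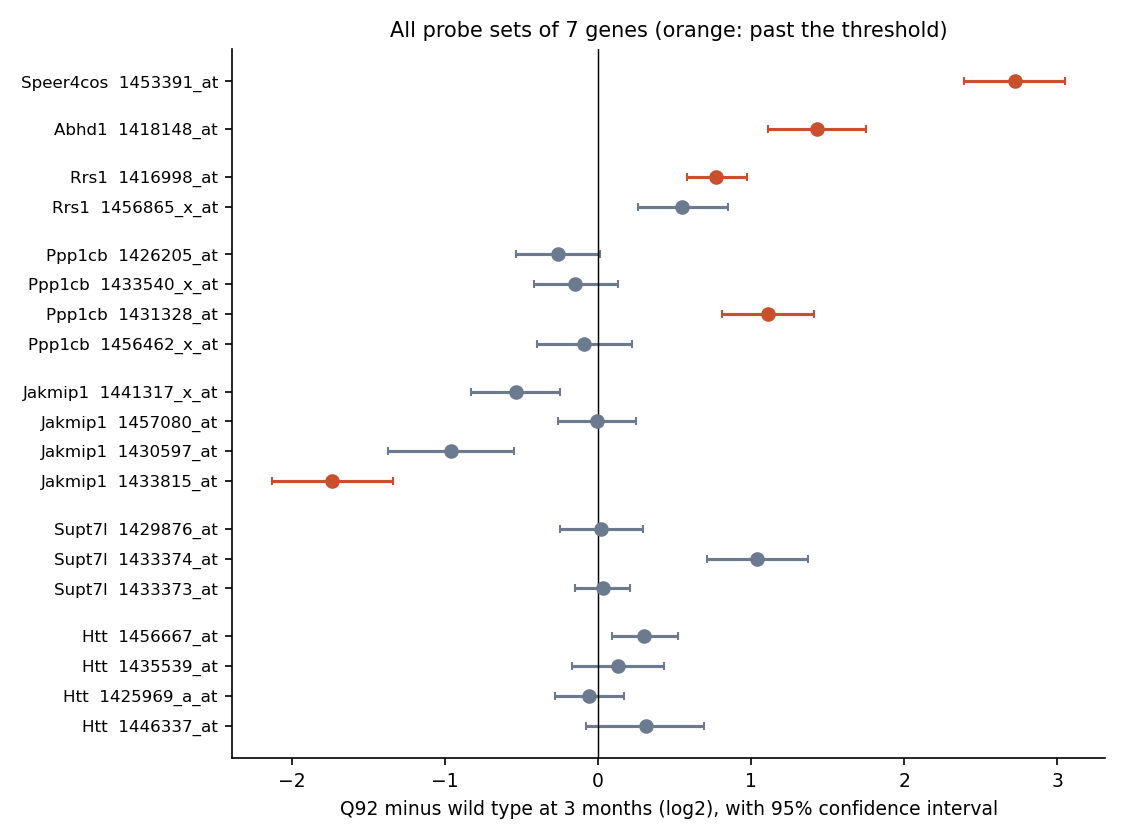
Log2 difference at 3 months, Q92 minus wild type, of every probe set paired with 7 genes, with 95% confidence intervals, in orange where the probe set passed. The probe sets of Jakmip1 run from -1.74 to -0.01, and those of Ppp1cb lie on both sides of 0, from -0.26 to 1.11.

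Sex was uneven between the genotypes and age in days was not. The wild-type group held 1 female and 2 males and the Q92 group 2 females and 1 male, and 1 mouse of each group was 100 days old. With sex as a covariate 4 probe sets passed, and Ppp1cb did not (1.10, adjusted p = 0.104). With age in days as a block 2 passed, Speer4cos and Jakmip1, while Rrs1 (adjusted p = 0.395), Abhd1 and Ppp1cb (both 0.242) did not, with log2 differences of 0.77, 1.43 and 1.11 as before. In the fit to only the 6 arrays the differences were also the same, and the adjusted p was 0.00201 for Speer4cos, 0.0864 for Jakmip1, 0.206 for Abhd1 and for Rrs1 and 0.563 for Ppp1cb. Speer4cos passed under every alternative that was run.

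Beyond these 5, small p-values were fewer in the fit to all arrays than chance alone would give. Before adjustment, p was under 0.05 in 1191 probe sets (2.64%), while a uniform spread of p-values would put 2252 there. Of them 430 were higher (0.955%) and 761 lower (1.69%) in Q92 mice. The shortfall depended on the mice: with 1 array left out the count ran from 940 (without Q92_3m_466) to 2398 (without wt_3m_438). In the fit to only the 6 arrays the count was 955. Groups did not overlap in 1123 probe sets with Q92 above (2.49%) and in 1961 with Q92 below (4.35%). Read by the brightest probe set of each gene, 413 of 18193 genes had an unadjusted p under 0.05 (2.27%), and the median difference was -0.02, with 42.6% of genes higher in Q92 mice.

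Most of the largest differences followed 1 mouse or the sex of the mice. Of the 18193 genes, 14 differed by more than 1 on the log2 scale (0.077%), and among these Speer4cos and Abhd1 passed. The genes below were named by this size, after their values were seen. Ttr, Kl, Kcnj13, Sostdc1 and F5, genes of the choroid plexus, and Kcne2 and Ecrg4 were high in Q92_3m_439: Kcnj13, for example, read 8.47 there and between 4.22 and 4.85 in the other 5 mice. In Ttr, Sostdc1 and F5 every Q92 mouse lay above every wild-type mouse. Xist and Eif2s3y followed the sex of the mice. Rpgrip1, a protein of the photoreceptor cilium, read 4.81 in wt_3m_438 and between 8.80 and 8.86 in the other mice, and Cap1, an actin regulator, read 5.49 in wt_3m_467 and between 9.52 and 10.53 in the others. Gpx6, a glutathione peroxidase, also separated the genotypes. It read 7.94, 8.27 and 8.03 in wild-type mice and 7.21, 6.19 and 7.44 in Q92 mice, with Q92_3m_440 lowest. Its difference of -1.13 (SE 0.55) had an unadjusted p of 0.0627 and an adjusted p of 1.00, and at 18 months it was -1.75 (adjusted p = 0.398).

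Of the 15 further genes with the smallest p, all had an adjusted p of 1.00 and unadjusted p between 0.000524 and 0.00449, and in each of them the groups did not overlap, which the ranking by p favours. Their values are a description of the edge of the test. Elk3, an ETS-family transcription factor, read 3.73, 3.97 and 3.79 in wild-type mice and 4.27, 4.27 and 4.40 in Q92 mice, a difference of 0.48. Its other 3 probe sets gave between -0.08 and 0.10. Ggps1, which makes geranylgeranyl diphosphate for protein prenylation, read 6.60, 6.86 and 6.82 against 7.15, 7.67 and 7.46, a difference of 0.67. Its other 3 probe sets gave between 0.07 and 0.15. Of the 15 genes, 11 had several probe sets, and in 10 of these, all but Slc9a8, every other probe set lay between -0.14 and 0.15, so that their differences are those of 1 probe set.

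Fzd4, the receptor for norrin and Wnt ligands on brain endothelium, read 5.93, 5.93 and 5.87 against 6.92, 6.30 and 6.56, a difference of 0.68, while its other 2 probe sets gave -0.04 and 0.06. Nos3, the endothelial nitric oxide synthase, which is encoded on chromosome 5 with 134 measured genes between it and Htt, read 5.73, 6.01 and 5.96 against 6.19, 6.36 and 6.52, a difference of 0.45. In Fzd4 the Q92 mice spread more widely than the wild-type mice, with Q92_3m_439 highest. Tyk2, a Janus kinase of interferon signalling, was at 0.34. Aspa, the enzyme of oligodendrocytes that splits N-acetylaspartate, read 7.41, 7.68 and 7.51 against 8.07, 7.90 and 7.85, a difference of 0.41. Ctnnal1, a relative of the catenins, and Slc9a8, a sodium-proton exchanger, were at 0.43 and 0.39.

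The genes of this group that were lower in Q92 mice were Atraid, Asb15, Pm20d1, Cts8, 4930480K23Rik and C230035I16Rik. Atraid, named for its induction by retinoic acid, lies on chromosome 5 and read 8.57, 8.53 and 8.5 against 7.96, 8.14 and 7.98, a difference of -0.51. Mrpl33, a protein of the mitochondrial ribosome encoded on the same chromosome, was higher, at 7.19, 7.37 and 7.36 against 7.63, 7.74 and 7.60, a difference of 0.35. The other 5 differed by between -0.40 (Asb15) and -0.31 (4930480K23Rik). These 5 were dim, with values in the 3-month mice from 2.75 (Cts8) to 4.52 (C230035I16Rik), below the array medians of 4.96 to 5.01.

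Small p-values were more frequent within 200 genes of Htt in gene order than farther along chromosome 5. Of the 20 probe sets with the smallest p, 9 were on chromosome 5, and of the 20 genes with the smallest p, 6 were. On chromosome 5, 39 of 1122 genes had an unadjusted p under 0.05 (3.48%), against 0.871% to 2.92% on the other chromosomes. Groups did not overlap in 8.02% of its genes, a lower share than on chromosomes 7 (8.14%), 14 (8.74%) and 19 (8.87%). At 18 months 9.71% of its genes had an unadjusted p under 0.05, less than on chromosomes 8 (10.1%) and 12 (9.97%). At 3 months the share with p under 0.05 was 28 of 401 (6.98%) within 200 genes on either side of Htt. Farther away it was 11 of 721 (1.53%). Within 50 genes it was 8 of 101 (7.92%), so the share was of like size in the narrower window. The windows join both sides of Htt, and in the wider window most genes with a small p lay before it. Neighbouring genes share a chromosome segment and are not independent, and these shares are given without a test. Counted in measured genes, 33 lay between Htt and Ppp1cb, 65 between Htt and Abhd1 and 173 between Htt and Speer4cos, all before Htt, and 29 lay between Htt and Jakmip1, after it. The 4 genes lay on both sides of Htt and had both directions, and the place of Speer4cos rests on its uncertain gene name. Fgfr3, Ppargc1a, Kdr and Grm3, described below with their gene lists, also lie within 200 genes of Htt. How much flanking sequence from the embryonic stem cells of the knock-in the Q92 mice still carried is not stated in the labels, so an effect of the repeat and of such sequence cannot be told apart.

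**Figure D3:**
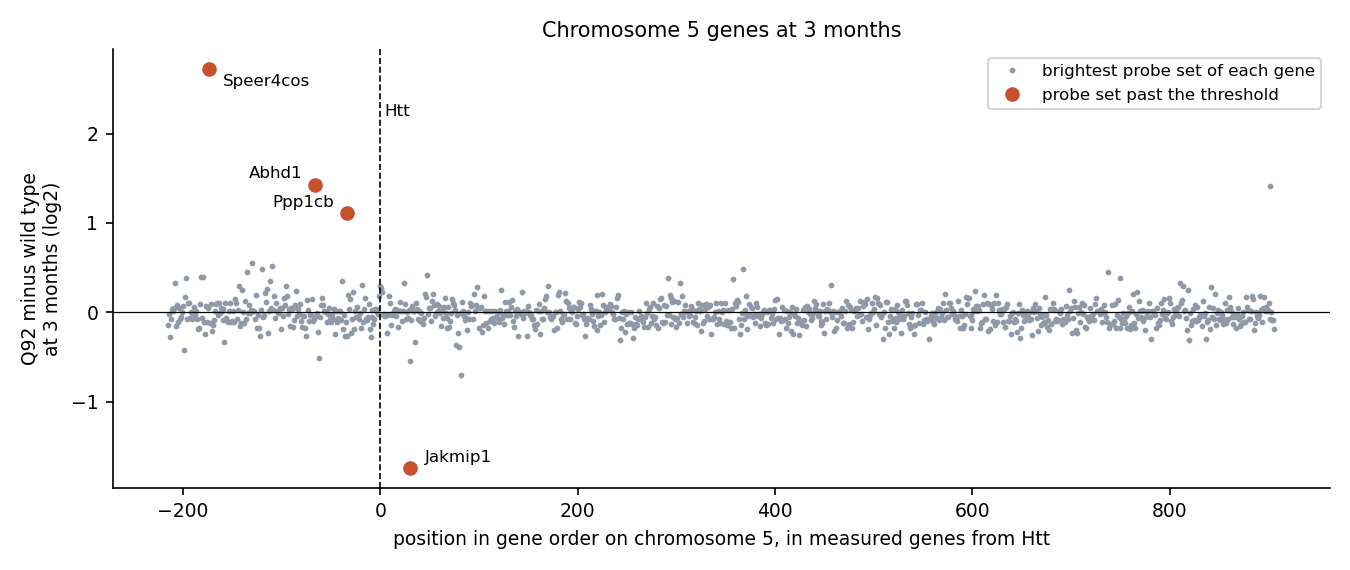
Log2 difference at 3 months of each measured gene on chromosome 5, placed by its rank in gene order from Htt (dashed line), with the brightest probe set per gene in grey and the 4 passing probe sets in orange. Between Htt and the farthest of them, Speer4cos as annotated, lie 173 genes, and the isolated grey point at the far right is Kl (1.41), a choroid plexus gene.

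Supt7l, a subunit of the STAGA histone acetyltransferase complex, lies between Abhd1 and Ppp1cb in this order and is named outside the rule, after its values were seen. One of its 3 probe sets read 3.41, 3.36 and 3.45 in wild-type mice and 4.30, 4.82 and 4.21 in Q92 mice. The groups were clearly apart, with a difference of 1.04 (unadjusted p = 1.62e-05), but the adjusted p was 0.121. The other 2 gave 0.02 and 0.03. At 18 months the probe set that had differed by 1.04 gave 1.13 (adjusted p = 0.0206).

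No gene that marks striatal projection neurons passed. The projection neuron list held 32 measured genes, of which 14 were higher and 18 lower; 0 passed (0.0165% of all genes did), and the median was -0.02, equal to that of all genes. Pde2a, a cyclic nucleotide phosphodiesterase, read 11.88, 11.74 and 12 against 11.60, 11.71 and 11.61, and its difference of -0.23 (unadjusted p = 0.0371, adjusted p = 1.00) was the one of the list with an unadjusted p under 0.05. Penk, the enkephalin precursor of indirect pathway neurons, read 11.58, 11.70 and 11.81 against 11.64, 11.76 and 11.61. The size of its difference at 18 months (-1.26) lies far outside the interval at 3 months, -0.27 to 0.21. Ppp1r1b, which encodes DARPP-32, read 10.80, 10.90 and 11.21 against 10.91, 11.27 and 10.85, with an interval of -0.42 to 0.51. For this gene the groups overlapped fully and the interval is wider.

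Genes of receptors and peptides of both output pathways did not pass either. Drd2 was at -0.06 and Drd1 at 0.23, with intervals of -0.61 to 0.48 and -0.27 to 0.72. Tac1, the substance P precursor, was at -0.02, Pdyn, the dynorphin precursor, at -0.04, Rgs9, which ends G protein signalling, at -0.01, Cnr1, the cannabinoid receptor, at -0.04 and Pde10a at 0.03. The indirect pathway list (5 measured) had a median of -0.03 and the direct pathway list (9 measured) 0.04. Chrm4, a muscarinic receptor of direct pathway neurons, read 3.95, 4.95 and 4.86 against 4.95, 5.22 and 5.51. Its difference of 0.64 had an unadjusted p of 0.176 and was 0.32 without wt_3m_436, the low mouse. Sfxn1, a mitochondrial serine carrier, was lower in every Q92 mouse, by 0.30 on the log2 scale (-0.30, unadjusted p = 0.0432, adjusted p = 1.00).

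Genes of the oligodendrocyte were higher in most cases, by small amounts. In this list 17 of 19 measured genes were higher and 2 lower, with a median of 0.23, where 42.6% of all genes were higher and the median was -0.02. None of the 19 passed, 1 had an unadjusted p under 0.05 (Aspa), and in 2 the groups did not overlap, Aspa and Sox10, against 2.3% of all genes with Q92 above. Sox10, the transcription factor of the lineage, read 8.11, 8.13 and 7.87 against 8.48, 8.24 and 8.34, a difference of 0.32. Ugt8a, which makes the myelin lipid galactosylceramide, read 9.42, 9.51 and 8.60 against 9.71, 9.45 and 9.43, and Cldn11, a myelin tight junction protein, read 8.53, 8.92 and 8.17 against 8.59, 9.14 and 8.80. In both genes wt_3m_467 was the low mouse. The list as a whole gave the same picture, with means relative to the 6 arrays of -0.06, 0.12 and -0.34 in wild-type mice and of 0.15, 0.13 and 0.01 in the Q92 mice. Without wt_3m_467 the median was 0.06. Mbp, the main myelin basic protein gene, was at 0.03. Of the 8 precursor genes, 5 were higher, with a median of 0.04. Bmp4 was lower in all Q92 mice, at 4.26, 4.26 and 4.24 against 4.06, 3.90 and 4.0 (-0.27, unadjusted p = 0.0230, adjusted p = 1.00).

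The choroid plexus, the tissue of the ventricle that makes cerebrospinal fluid, gave the largest list median, 0.63, with 13 of 16 genes higher. The size of this median was carried by 1 mouse. The list mean was 1.61 in Q92_3m_439, against -0.47 and -0.16 in the other Q92 mice and -0.14, -0.50 and -0.34 in wild-type mice. Without Q92_3m_439 the median was -0.04. In 3 of the 16 genes every Q92 mouse lay above every wild-type mouse, against 2.3% of all genes. Ttr, which encodes transthyretin, read 10.76, 10.79 and 9.82 against 13.70, 11.07 and 11.78, and Kl, which encodes klotho, read 3.70, 3.32 and 3.5 against 7.09, 3.38 and 4.27. Neither passed (unadjusted p = 0.110 and 0.169). Igfbp2, of the matrix list, which choroid plexus also makes, read 8.13 in this mouse and between 5.24 and 5.87 in the others. Without Q92_3m_439 the 5 passing genes had differences of 2.68 (Speer4cos), 1.47 (Abhd1), 0.77 (Rrs1), 1.12 (Ppp1cb) and -1.66 (Jakmip1), close to those with it.

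**Figure D4:**
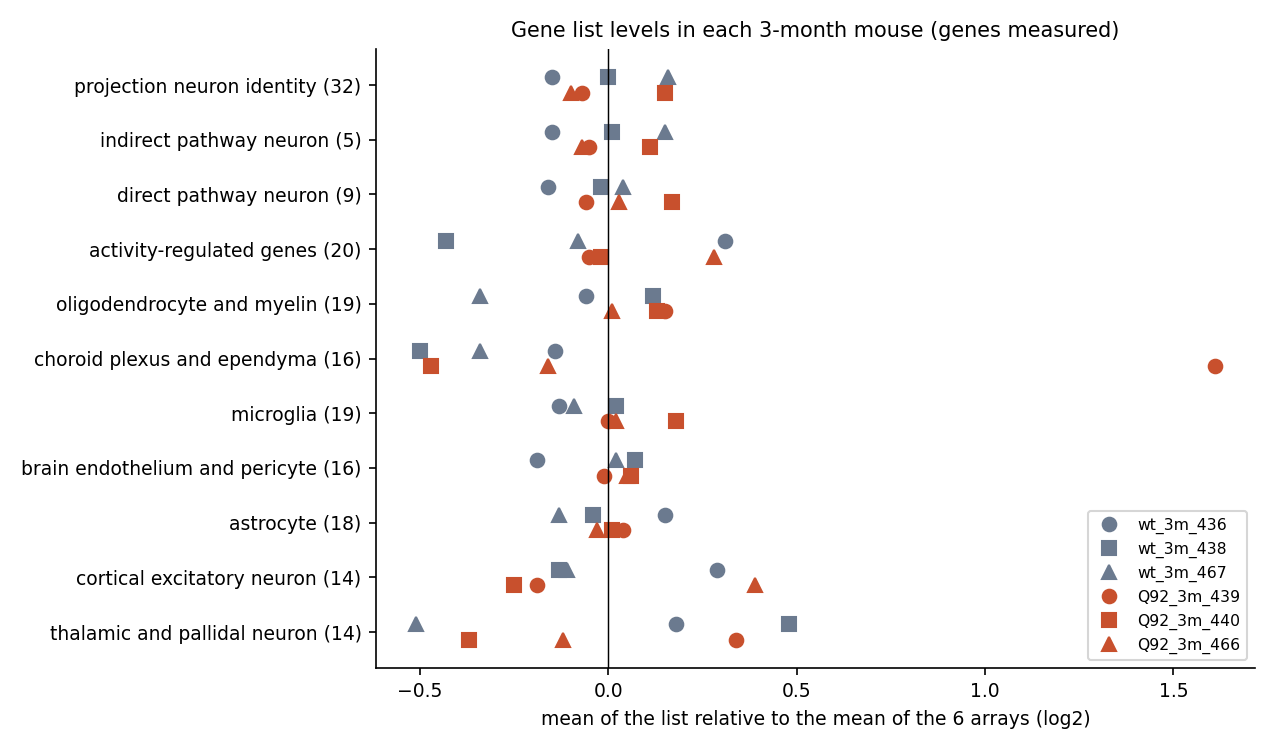
Mean log2 level of 11 gene lists in each 3-month mouse, relative to the mean of the 6 arrays; wild-type mice are grey and Q92 mice orange, and the number of measured genes is in brackets. The choroid plexus list stands at 1.61 in Q92_3m_439, while the projection neuron lists of the genotypes overlap.

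Genes of microglia and of vessels had medians of 0.11 and 0.05. In the microglia list 14 of 19 genes were higher and 0 passed. Cx3cr1, the fractalkine receptor, read 7.31, 7.66 and 6.11 against 7.82, 7.33 and 7.71, a difference of 0.59 (0.13 without wt_3m_467, the low mouse). Itgam, an integrin of microglia, was at 0.33 and Siglech at 0.27, higher in every Q92 mouse. In the list of endothelium and pericytes 14 of 16 genes were higher, among them Kdr, the VEGF receptor, at 0.29 and Tek, the angiopoietin receptor, at 0.20, both higher in every Q92 mouse with unadjusted p of 0.0574 and 0.0800. The median turned to -0.02 without wt_3m_436. Kdr lies on chromosome 5, with 169 measured genes between it and Htt. The lists of astrocytes (18 genes, -0.02), of MHC class I and the interferon response (15 genes, 0.04) and of collagen and matrix (14 genes, 0.04) lay near the median of all genes. Fgfr3, a growth factor receptor of astrocytes, was higher in every Q92 mouse (7.81, 7.84 and 7.78 against 8.25, 7.98 and 8.13, unadjusted p = 0.00925, adjusted p = 1.00). This gene lies on chromosome 5, with 18 measured genes between it and Htt. Gfap read 7.20, 6.40 and 6.42 against 7.15, 6.92 and 6.76, with overlapping groups.

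Activity-regulated genes varied more between mice than between genotypes. Of 20 genes 15 were higher, with a median of 0.11, and without wt_3m_438 it was -0.04. The list means were 0.31, -0.43 and -0.08 in wild-type and -0.05, -0.02 and 0.28 in Q92 mice. Npas4, an activity-induced transcription factor, read 6.08, 4.44 and 5.55 against 5.69, 6.28 and 6.18, a difference of 0.70 (unadjusted p = 0.102). Fos read 8.19, 6.37 and 6.90 against 7.43, 7.15 and 8.14. Lists of tissue next to the striatum had medians of -0.05 (cortical, 14 genes) and -0.12 (thalamic and pallidal, 14 genes). Prkcd of the thalamus read 9.0 in wt_3m_438 and between 6.28 and 7.91 in the others. Of the interneuron list (14 genes, 0.04), Vip, a peptide, read 6.35, 5.45 and 6.36 against 4.64, 4.99 and 6.03, a difference of -0.83 (unadjusted p = 0.0626). Its groups overlapped through Q92_3m_466. The neurogenesis list (13 genes) had a median of -0.13, with 9 lower.

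In the pathways of Rrs1 and Ppp1cb no other gene passed. Of 49 ribosome biogenesis genes, 19 were higher and 30 lower, with a median of -0.02, and Rrs1 was the one that passed. Rrp15, which like Rrs1 acts in large subunit assembly, read 5.99, 6.06 and 6.22 against 5.80, 5.96 and 5.61, a difference of -0.30 (unadjusted p = 0.0123, adjusted p = 1.00). Groups did not overlap in 2 of these genes with Q92 above and in 6 with Q92 below, where 2.3% and 4.34% of all genes did so. Of 23 subunits of protein phosphatase 1, 11 were higher, with a median of -0.02, and 0 passed by their brightest probe sets. Ppp1r10, a nuclear targeting subunit, was at 0.23, and Ppp1ca, the alpha catalytic subunit, at -0.10. The 18 genes of huntingtin's binding partners had a median of 0.00, with 9 higher and 9 lower.

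Gene lists of processes often studied in Huntington's disease had medians near that of all genes. Medians were 0.03 for cholesterol and isoprenoid synthesis (20 genes), 0.00 for heat shock proteins and chaperones (22 genes), -0.02 for the proteasome (31 genes), -0.02 for the respiratory chain (29 genes), 0.01 for regulators of mitochondrial biogenesis (14 genes) and 0.02 for the unfolded protein response (22 genes). They were -0.01 for autophagy (23 genes), 0.03 for glutamate receptors (22 genes), -0.06 for neurotrophins and their receptors (12 genes) and -0.03 for the circadian clock (16 genes). No gene of these lists passed. Ppargc1a, which encodes the mitochondrial regulator PGC-1 alpha, read 7.83, 7.96 and 7.46 against 7.36, 7.44 and 7.37 and was lower in every Q92 mouse, with a difference of -0.36 (95% confidence interval -0.69 to -0.03, unadjusted p = 0.0330, adjusted p = 1.00). Ppargc1a lies on chromosome 5, with 76 measured genes between it and Htt. Among chaperones, Dnajb2, a co-chaperone of neurons, read 8.31, 8.27 and 8.24 against 8.54, 8.51 and 8.49, a difference of 0.24 (unadjusted p = 0.0108, adjusted p = 1.00). This gene had tight groups that lay apart. Among glutamate receptors, Grm3 was higher in every Q92 mouse, at 9.42, 9.54 and 8.83 against 9.58, 9.63 and 9.75 (0.39, unadjusted p = 0.0415), and Grm8 was at -0.45 with overlapping groups (unadjusted p = 0.0342). Grm3 lies on chromosome 5, with 181 measured genes between it and Htt. The erythrocyte list (3 genes) had a median of -0.14 and the list of sex-linked genes (8 genes) 0.20.

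The 5 early probe sets were also different at 18 months in other mice. Those that were lower and passed at 18 months alone had overlapping groups at 3 months. At 18 months 24 probe sets passed (0.0533%), including all 5, with log2 differences of 2.38 for Speer4cos, 1.47 for Abhd1, 0.67 for Rrs1, 1.54 for Ppp1cb and -1.83 for Jakmip1. The brightest Ppp1cb probe set was at -0.63 at 18 months (unadjusted p = 0.000263, adjusted p = 0.130), opposite to the one that passed. Among the 5 the change with age was largest for Ppp1cb, from 1.11 to 1.54 (unadjusted p = 0.0480, adjusted p = 0.946). Of the other 19 probe sets, 16 were lower in Q92 mice at 18 months (0.0377% of all probe sets were, with Jakmip1 among them). At 3 months the differences of these 16 ran from -0.25 to 0.28 with a median of 0.04, 7 of them were lower, and the smallest unadjusted p was 0.176. The other 3 were higher at 18 months. At 3 months the Supt7l probe set was at 1.04 and the one shared by Speer4cos and others at 0.70, both with groups apart. In limma their unadjusted p was 1.62e-05 and 0.000137. The last, without a gene name, was at 0.32 with overlapping groups. Clspn, a checkpoint adaptor, read 6.01, 6.05 and 6.13 against 6.04, 6.33 and 5.97 at 3 months, and Ryr1, a calcium release channel, read 6.45, 7.04 and 7.02 against 6.84, 7.34 and 6.81. In both the groups overlapped at 3 months, and at 18 months the differences were -1.39 and -1.70.

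The test of the change itself, the genotype difference at 18 months minus that at 3 months, gave 0 passing probe sets in limma, with 2335 at an unadjusted p under 0.05 (5.18%). The smallest adjusted p was 0.0598, shared by Penk, Clspn and Sdr39u1. For these genes the change passed with an intensity trend and robust prior (adjusted p = 0.0116, 0.0412 and 0.0311) and with 1 probe set per gene, so their call depends on the variance model and on how many features are tested. Across 18193 genes the differences at both ages had a Pearson correlation of -0.012, a description across genes of the same arrays' processing, which are not independent. Of the 413 genes with an unadjusted p under 0.05 at 3 months, 207 had the same direction at 18 months (50.1%). The spread of differences over genes was narrower at 3 months, with an SD of 0.132 against 0.195.

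**Figure D5:**
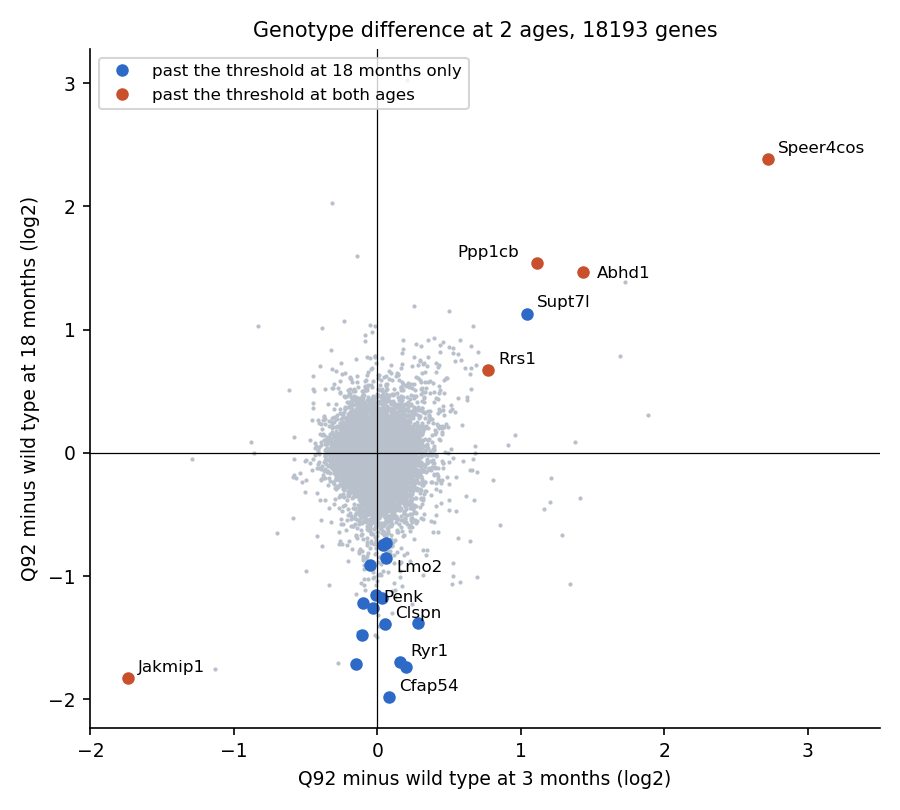
Log2 difference at 3 months (x axis) and at 18 months (y axis), Q92 minus wild type, of 18193 genes by their brightest probe set (grey) and of named probe sets that passed at both ages (orange) or at 18 months only (blue). The 5 orange points lie off 0 on both axes, and the blue points other than Supt7l lie between -0.15 and 0.28 on the x axis.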

How the data were processed

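The deposited table gives each array a log2 signal for every probe set, made by the authors with RMA in the affy package, per the submitters' processing notes, which give no versions. RMA subtracts background, equalises the distributions of the arrays and joins the probes of a set into 1 value, so a difference is relative to the other genes. The sources used here do not say whether the 12 arrays were normalised together. The values (2.03 to 13.8) were used as deposited.

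One mean per genotype and age (4 groups of 3 separate mice, each with its own animal number) was fitted to the 12 arrays with limma 3.58.1 in R 4.3.3 (8 residual and 4.50 prior degrees of freedom). Benjamini-Hochberg adjustment ran over 45037 probe sets, with a threshold of 0.05, after leaving out 64 control probe sets. The number of arrays limits the precision, and the median SE of a 3-month difference was 0.122. The procedure was tested on simulated data.

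The probe table paired 34945 probe sets with 1 gene, 932 with several and 9160 with none; 34741 matched RefSeq genes of GRCm38.p6, used for names, gene order and promoters. Each of 18193 genes is given by its brightest probe set (the highest mean signal). Named are every gene with a passing probe set (by that probe set, with its others beside it), the 15 further genes with the smallest p, up to 4 members of each of 31 gene lists with the largest difference, Htt and 10 striatal genes. The lists held 598 genes, 552 of them measured, and were described by counts and medians. The members and lists were chosen with earlier results of these data known. Alternatives were other scalings, a filter on dim probe sets, other variance models, sex and age in days, only the 6 arrays, other uses of a gene's probe sets, and leaving out each 3-month array. Terms for age in days covered the mice of both ages.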

Additional observations from a re-analysis of the deposited data

How the results depend on the processing

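Scaling, the filter on dim probe sets, array weights and the variance prior left 5 passing probe sets at 3 months. There were 2 with age in days as a block, 1 with sex and age in days together, 1 in a fit to only the 6 arrays and 3 with the brightest probe set per gene, where Ppp1cb turned to -0.26. Leaving out 1 array left between 1 and 4 (3 without wt_3m_436, 1 without Q92_3m_439 or Q92_3m_440, 3 without Q92_3m_466). Abhd1 had an adjusted p of 0.722 with sex and age in days (log2 difference 1.45). For the change with age, with 0 passing in limma, there were 3 with an intensity trend and robust prior, 2 with array weights, 1 with age in days as a block (a probe set without a gene name), 3 with the brightest probe set per gene and 2 with the mean of a gene's probe sets. Leaving out 1 array gave 0. Of 141 other named genes, 34 changed sign under at least 1 alternative and 0 passed under any. List medians moved by over 1 SD under at least 1 alternative in 6 of 31 lists. No paired analysis was possible because the groups share no animal numbers; the comparisons within sex and age in days are in the report. What caused these shifts was not tested. With 3 arrays per group, small differences could not be told from 0.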

Other observations

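One probe set without a gene name had values of 6.45, 6.18 and 6.22 in wt_3m_436, wt_3m_438 and wt_3m_467 and of 5.62, 5.57 and 6.01 in Q92_3m_439, Q92_3m_440 and Q92_3m_466. It was singled out after its values were seen, and its log2 difference of -0.55 at 3 months stood against 0.27 at 18 months (adjusted p = 1.00 at 3 months, limma).

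The 64 control probe sets, kept out of the comparison, showed 0 genotype differences at an adjusted p of 0.05 in limma, 0 at an unadjusted p under 0.05, and a smallest adjusted p of 0.966. The 5′ probe set of 18S ribosomal RNA varied widely between mice of 1 genotype: it read 6.69, 8.70 and 5.28 in wild-type mice and 6.66, 7.01 and 11.18 in Q92 mice, with Q92_3m_466 highest and wt_3m_467 lowest. The part of this in the differences above was not tested.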
